A study of Mus musculus with 8 samples.

Results

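The comparison described here is that of *Ncoa6*-KO with *Ncoa6*-sufficient bone marrow-derived macrophages (BMDMs) kept in medium alone, which is the effect of the knockout in resting cells. It used 4 of the 8 libraries of the series, 2 of each genotype, and every gene whose rounded counts summed to at least 10 over the 8 libraries, which left 17625 of the 50615 genes in the deposited table. The genotype of the *Ncoa6*-KO cells was Ncoa6 fl/fl LysM CRE and that of the *Ncoa6*-sufficient cells Ncoa6 fl/fl, so both genotypes carried the floxed *Ncoa6* alleles and differed in the Cre recombinase. The labels name the strain as C57BL/6 and write the control genotype as WT, whereas the methods of the study give it as Ncoa6 fl/fl. The age and sex of these mice were not given in the sources used here. Marrow cells had spent 6 days in 20 ng/ml M-CSF, and the resting cells then received medium without a stimulus, while the other 4 libraries, which entered the fit only for its estimate of spread and for values set side by side, had 4 h of 100 ng/ml LPS followed by 2 h of 200 µg/ml monosodium urate (MSU) crystals. The 2 libraries of a genotype came from different mice. LysM CRE drives Cre from the lysozyme 2 locus, which is active in myeloid cells, and no group carried Cre without the floxed alleles, so effects of Cre and of the loss of *Ncoa6* cannot be told apart.

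NCOA6 is a coactivator that binds nuclear receptors and other transcription factors and is a subunit of ASCOM, the complex that brings the histone methyltransferases KMT2C and KMT2D to genes. Macrophages grown in M-CSF are dividing, phagocytic cells that carry receptors for antibodies, complement, microbial products and dying cells, and they make a low tonic level of interferon and chemokines without any stimulus. The genes below are grouped by these functions, in lists of family and pathway members.

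Libraries with medium alone held between 25984619 and 33673552 counts, and TMM factors, which correct the library size for composition, ran from 1.23 to 1.29. Replicates had correlations of log2 counts across genes of 0.992 and 0.99, and genes are not independent replicates. All 8 macrophage markers passed the filter and their normalized counts summed to 456129 and 388720 in *Ncoa6*-sufficient and 288001 and 248933 in *Ncoa6*-KO libraries, of which *Lyz2* gave most. None of 9 T and NK cell markers passed the filter, and the tested B cell, dendritic cell and mast cell markers summed to at most 55, 29 and 7 normalized counts in any library. Neutrophil markers summed to between 444 and 522, and stromal markers to between 177 and 581, with the lowest sum in *Ncoa6*-KO replicate 1. *Ddx3y*, on the Y chromosome, was present in all 4 libraries at between 1175 and 1454 normalized counts.

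*Ncoa6* itself (ENSMUSG00000038369) had 1515 and 1405 normalized counts in the *Ncoa6*-sufficient libraries and 784 and 622 in the *Ncoa6*-KO libraries. The genotypes did not overlap, and the whole-gene count fell by 1.05 on the log2 scale (standard error 0.12, edgeR adjusted p = 0.00236). Of the 10 ASCOM subunits *Ncoa6* was the only one called. *Kmt2c* and *Kmt2d*, the methyltransferases of the complex, had log2 fold changes of 0.18 and 0.05 (edgeR adjusted p = 0.518 and 0.928). *Lyz2*, the lysozyme gene into which LysM CRE is inserted, had 272098 and 209893 normalized counts in *Ncoa6*-sufficient and 127555 and 111994 in *Ncoa6*-KO libraries. It fell by 1.01 on the log2 scale (standard error 0.17, edgeR adjusted p = 0.0172), and since the genotypes differ at this locus by construction, the inserted Cre and the loss of *Ncoa6* cannot be told apart there.

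A gene was called at an adjusted p under 0.05 over all genes tested, with edgeR's quasi-likelihood test and the Benjamini-Hochberg adjustment. Under this rule 331 genes were called (1.88% of those tested), 101 of them higher in *Ncoa6*-KO (0.573%) and 230 lower (1.3%). By the same test, 876 of the 17625 genes had a higher and 1386 a lower estimate at an unadjusted p under 0.05. The log2 fold change of all genes tested had a median of -0.03 and ran from -0.97 at the 5th to 1.00 at the 95th percentile. The called genes had medians of 0.89 and -0.89, and 49 of those higher and 98 of those lower passed a log2 fold change of 1. Protein-coding genes made up 320 of the 331, against 13799 of the 17625 tested, and long noncoding genes 4 of the 331 against 1886. The number of calls depended on single libraries: it was 22 without *Ncoa6*-sufficient replicate 1, 93 without *Ncoa6*-sufficient replicate 2, 116 without *Ncoa6*-KO replicate 2 and 372 without *Ncoa6*-KO replicate 1. In each of these 4 fits all 331 genes kept the sign of their change. Leaving out 1 library could hardly turn a sign, because the genotypes overlapped in none of the 331. Of the 100 called genes named here, 15 stayed called without *Ncoa6*-sufficient replicate 1, 37 without *Ncoa6*-sufficient replicate 2, 43 without *Ncoa6*-KO replicate 2 and 73 without *Ncoa6*-KO replicate 1.

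**Figure D1:**
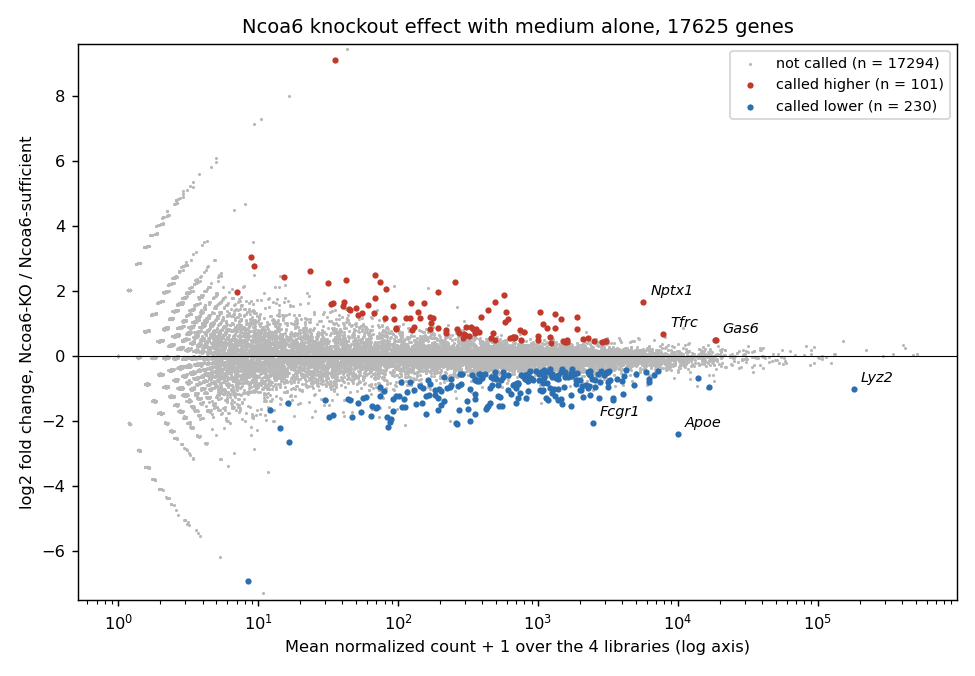
Log2 fold change of *Ncoa6*-KO over *Ncoa6*-sufficient BMDMs with medium alone (y axis) against the mean normalized count plus 1 over the 4 libraries (x axis, log scale). Each point is 1 of 17625 genes, with the 101 genes called higher in red, the 230 called lower in blue and 6 genes labelled, and the calls lie at small changes where counts are high and only at large ones where counts are low.

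Genes of mitosis were lower together. All 62 members of the list of mitosis and chromosome segregation genes had lower estimates in *Ncoa6*-KO cells, 58 of them at an unadjusted p under 0.05, and 17 were called, all lower (1.3% of all genes were called lower). The median log2 fold change was -0.43, against -0.03 over all genes. *Plk1*, the kinase that drives entry into and exit from mitosis, had 1939 and 1853 normalized counts in *Ncoa6*-sufficient and 1225 and 1221 in *Ncoa6*-KO libraries. It fell by 0.63 on the log2 scale (standard error 0.11, edgeR adjusted p = 0.0227). *Birc5*, which encodes the chromosomal passenger protein survivin, went from 1972 and 2030 to 1209 and 1382, a fall of 0.63 (standard error 0.10, edgeR adjusted p = 0.0111). *Aurka*, a spindle pole kinase, went from 1015 and 900 to 629 and 660, a fall of 0.57 (edgeR adjusted p = 0.029), and *Troap*, a spindle-associated protein gene, from 467 and 481 to 302 and 268, a fall of 0.73 (edgeR adjusted p = 0.0381). In each of these genes both *Ncoa6*-KO libraries lay below both *Ncoa6*-sufficient libraries, with replicates close together. The genotypes were separate in all 331 called genes and in 43.1% of all genes tested. Other proliferation genes were not called: *Ccnb1*, *Top2a* and *Mki67* had log2 fold changes of -0.41, -0.35 and -0.18. Relative to the *Ncoa6*-sufficient mean, the median level of the list was -0.42 and -0.46 on the log2 scale in the 2 *Ncoa6*-KO libraries. The calls numbered 0 without *Ncoa6*-sufficient replicate 1, 1 without *Ncoa6*-sufficient replicate 2, 3 without *Ncoa6*-KO replicate 2 and 5 without *Ncoa6*-KO replicate 1, while the median of the list stayed between -0.46 and -0.41. In bulk RNA, fewer dividing cells and less of these RNAs per dividing cell cannot be told apart.

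The promoters of the mitosis genes are shown because these genes moved together. Many mitotic promoters are known to carry a cell cycle homology region (CHR), with the letters TTTGAA, close to the transcription start, a site bound by cell cycle regulators. The motif was looked up after the calls were seen, on both strands from 250 bases before to 50 after the RefSeq start on GRCm38.p6, and capitals mark the matches. *Plk1* (chr7:122159185-122159484, forward strand) holds it 30 bases after the start and *Aurka* (chr2:172370521-172370820, reverse strand) 32 bases after it. *Ccnb2* (chr9:70421505-70421804, reverse strand), the cyclin B2 gene and also called lower, holds it 167 bases before and 4 bases after the start.
*Plk1*: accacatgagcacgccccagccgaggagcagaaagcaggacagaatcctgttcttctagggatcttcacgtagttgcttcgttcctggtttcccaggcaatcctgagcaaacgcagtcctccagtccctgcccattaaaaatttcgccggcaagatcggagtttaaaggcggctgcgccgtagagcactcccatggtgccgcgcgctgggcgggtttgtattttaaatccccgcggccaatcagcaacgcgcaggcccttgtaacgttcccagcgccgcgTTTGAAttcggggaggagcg
*Aurka*: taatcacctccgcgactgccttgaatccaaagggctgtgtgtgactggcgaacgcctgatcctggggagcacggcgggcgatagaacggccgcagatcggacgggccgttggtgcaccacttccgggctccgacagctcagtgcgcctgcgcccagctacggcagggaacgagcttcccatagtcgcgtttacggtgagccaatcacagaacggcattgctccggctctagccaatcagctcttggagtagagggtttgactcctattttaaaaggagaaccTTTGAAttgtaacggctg
*Ccnb2*: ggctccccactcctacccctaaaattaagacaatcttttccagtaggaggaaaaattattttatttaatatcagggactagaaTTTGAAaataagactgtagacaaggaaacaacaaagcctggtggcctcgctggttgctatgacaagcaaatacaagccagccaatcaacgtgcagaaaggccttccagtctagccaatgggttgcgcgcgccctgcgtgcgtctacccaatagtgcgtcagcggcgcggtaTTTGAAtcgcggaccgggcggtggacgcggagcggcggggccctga
Of 17 promoters of mitosis genes called lower, 12 held TTTGAA (70.6%), against 12.7% of the 14696 promoters of all genes tested. The CCAAT box, letters CCAAT, was in 70.6% of these promoters and in 37.5% of all promoters. Promoters of mitosis genes that were not called were not counted separately, so these shares cannot be tied to the knockout. A match is a description of these letters and not a test of binding.

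DNA replication genes gave no calls. None of the 55 members of the list of DNA replication and G1/S genes was called, and their median log2 fold change was -0.09. *Pcna*, the sliding clamp of the replication fork, had 12123 and 10972 normalized counts in *Ncoa6*-sufficient and 10305 and 12164 in *Ncoa6*-KO libraries, so that the genotypes overlapped. The 2 *Ncoa6*-KO libraries themselves differed in this list: all 55 members were higher in replicate 2 than in replicate 1, by a median of 0.41 on the log2 scale, whereas 30 of 55 were lower in the second of the *Ncoa6*-sufficient libraries. The median level relative to the *Ncoa6*-sufficient mean was -0.35 in *Ncoa6*-KO replicate 1 and 0.13 in replicate 2, and the median log2 fold change of the list was 0.13 without replicate 1, when 1 gene was called higher, and -0.35 without replicate 2. For the mitosis list the same libraries differed by a median of 0.00.

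Cell cycle inhibitors and targets of p53, the transcription factor that halts the cycle after damage, gave calls in the other direction. Of 25 tested members, 5 were called and all 5 were higher (0.573% of all genes were called higher), with a list median of 0.17. *Cdkn2a*, which encodes the inhibitors p16 and ARF, had 282 and 235 normalized counts in *Ncoa6*-sufficient and 448 and 483 in *Ncoa6*-KO libraries. It rose by 0.85 on the log2 scale (standard error 0.13, edgeR adjusted p = 0.00985). *Cdkn1c*, the gene of the inhibitor p57, rose from 244 and 293 to 418 and 464, a log2 fold change of 0.71 (edgeR adjusted p = 0.0298). The p53 targets *Zmat3* and *Phlda3* rose by 0.86 and 1.06 (edgeR adjusted p = 0.0317 and 0.0386). *Eda2r*, a gene at a low level that fell outside the rule for named genes and was chosen after its values were seen, had 16.5 and 21.5 normalized counts against 57.7 and 63.2. *Cdkn1a*, the gene of the inhibitor p21 and a classical p53 target, was not called at 4440 and 4283 against 5409 and 7096. Its genotypes did not overlap, as in 43.1% of all genes tested. Leaving out *Ncoa6*-sufficient replicate 1 or 2 left 0 of these calls, leaving out *Ncoa6*-KO replicate 2 left 1, and leaving out *Ncoa6*-KO replicate 1 gave 5. The median of the list was 0.02 without *Ncoa6*-KO replicate 1 and between 0.15 and 0.23 without any of the other libraries.

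**Figure D2:**
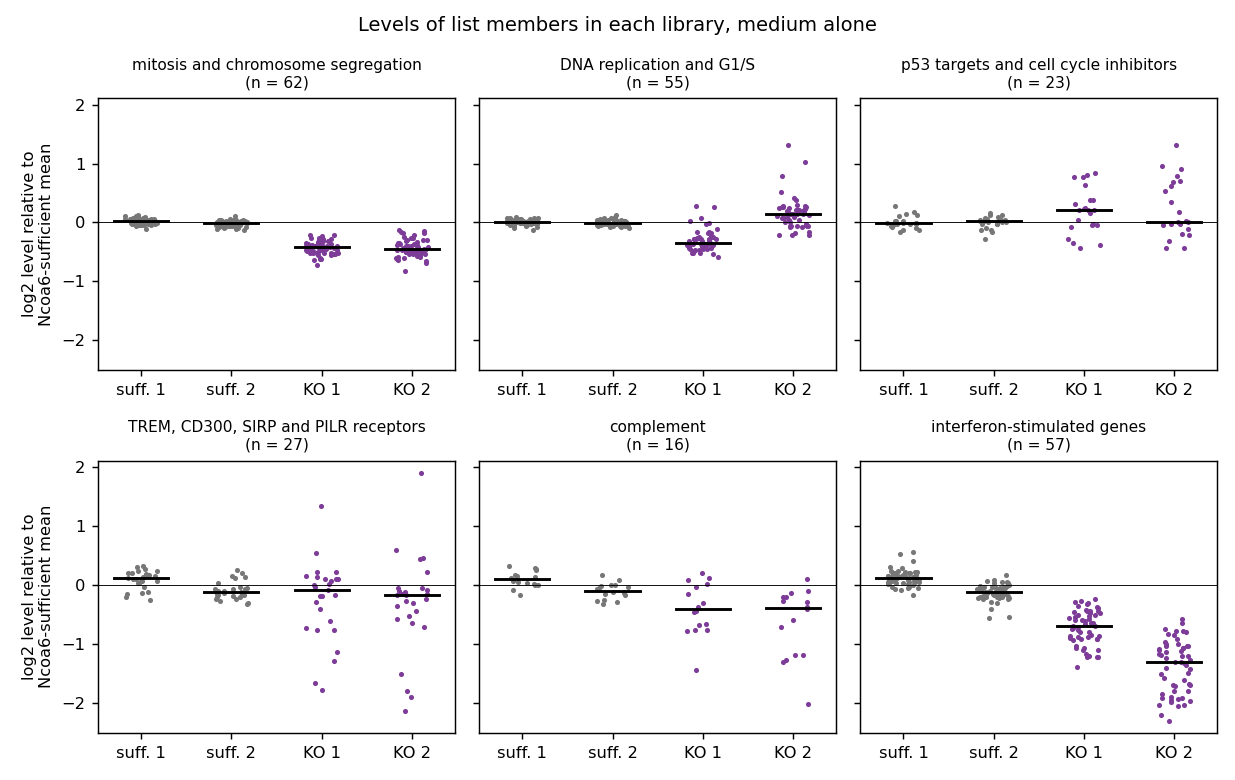
Level of each list member in each library on the log2 scale (y axis), relative to the mean of the *Ncoa6*-sufficient libraries, for members whose mean normalized count reached 50. Grey points are the *Ncoa6*-sufficient and purple points the *Ncoa6*-KO libraries, black lines are medians, and both *Ncoa6*-KO libraries are low for mitosis genes at -0.42 and -0.46 while for DNA replication genes they part at -0.35 and 0.13.

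Receptors for antibody and complement genes had mostly lower estimates and few calls (1.3% of all genes tested were called lower). *Fcgr1*, the high-affinity receptor for IgG, was the only called member of 8 tested Fc receptor genes, of which 7 had lower estimates and 5 of those an unadjusted p under 0.05. It had 4911 and 3033 normalized counts in *Ncoa6*-sufficient and 1213 and 697 in *Ncoa6*-KO libraries, a log2 fold change of -2.05 (standard error 0.32, edgeR adjusted p = 0.0115). *Fcgr4*, the activating receptor for IgG2, had a log2 fold change of -1.01 without passing the test (edgeR adjusted p = 0.261), and *Fcer1g*, the signalling chain shared by these receptors, one of -0.19. Among 21 complement genes 2 were called, both lower, 13 had an unadjusted p under 0.05 and a lower estimate, and the median was -0.48. *C3*, the central component, went from 3125 and 2897 to 1757 and 1323 normalized counts, a fall of 0.97 (standard error 0.15, edgeR adjusted p = 0.0108). *Cfb*, the factor of the alternative pathway that pairs with it, went from 90.1 and 73.1 to 29.2 and 19.3, a fall of 1.72 (standard error 0.22, edgeR adjusted p = 0.00431). The 3 chains of C1q, which opens the classical pathway, were not called, with log2 fold changes of -1.02 for *C1qa*, -0.99 for *C1qb* and -0.93 for *C1qc* (edgeR adjusted p = 0.0574, 0.113 and 0.106). *Fcgr1* was not called without *Ncoa6*-sufficient replicate 1 or without *Ncoa6*-KO replicate 2, and the complement calls numbered 0 without *Ncoa6*-sufficient replicate 1, 1 without *Ncoa6*-sufficient replicate 2, and 3 without *Ncoa6*-KO replicate 1.

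Paired immunoglobulin-like receptors, small surface proteins that set the threshold of myeloid activation, were called mostly lower. In the list of 31 TREM, CD300, SIRP and PILR genes, 5 were called lower and 1 higher, against 1.3% and 0.573% of all genes. The inhibitory receptor gene *Pilra* had 746 and 539 normalized counts in *Ncoa6*-sufficient and 199 and 220 in *Ncoa6*-KO libraries and fell by 1.62 (standard error 0.18, edgeR adjusted p = 0.00229). Its activating partner *Pilrb1* went from 155 and 102 to 35.5 and 35.1, a fall of 1.86 (standard error 0.26, edgeR adjusted p = 0.00795). *Pilrb2*, next to both on chromosome 5, fell by 1.59 (edgeR adjusted p = 0.0416). These genes are close relatives, so their reads may have been split between them by the estimate of counts. *Treml2* and *Cd300lf*, further receptors of this kind, fell by 1.58 and 0.73 (edgeR adjusted p = 0.0319 and 0.00946). *Cd200*, the ligand of an inhibitory myeloid receptor, was the call in the other direction, with 65.3 and 80.9 normalized counts in *Ncoa6*-sufficient and 186 and 275 in *Ncoa6*-KO libraries, a rise of 1.65 (standard error 0.19, edgeR adjusted p = 0.00245). *Trem2*, a lipid-sensing receptor at between 19718 and 23078 normalized counts, had a log2 fold change of 0.04. Called genes lower numbered 2 without *Ncoa6*-sufficient replicate 1 or 2, 3 without *Ncoa6*-KO replicate 2 and 5 without *Ncoa6*-KO replicate 1.

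Promoters of 3 lower receptor genes are shown, each of which holds a match, so they do not tell how common a match is. The motifs were set for the whole table: the PU.1 site GAGGAAGT and the core of the interferon-stimulated response element, GAAANNGAA. PU.1 is the master transcription factor of the macrophage lineage. *Slamf9* (chr1:172475110-172475409, forward strand), a receptor gene of the SLAM family, holds the PU.1 letters 8 bases before the start and *Cd300lf* (chr11:115133943-115134242, reverse strand) directly from the start, while *Pilra* (chr5:137836229-137836528, reverse strand) holds the interferon response core 178 bases before it. Capitals mark the matches.
*Slamf9*: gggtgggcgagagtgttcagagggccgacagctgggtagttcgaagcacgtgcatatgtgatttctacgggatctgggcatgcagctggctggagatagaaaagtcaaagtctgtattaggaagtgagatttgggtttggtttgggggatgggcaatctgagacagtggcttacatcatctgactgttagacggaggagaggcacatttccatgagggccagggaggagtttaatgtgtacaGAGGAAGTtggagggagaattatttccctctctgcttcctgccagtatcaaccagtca
*Cd300lf*: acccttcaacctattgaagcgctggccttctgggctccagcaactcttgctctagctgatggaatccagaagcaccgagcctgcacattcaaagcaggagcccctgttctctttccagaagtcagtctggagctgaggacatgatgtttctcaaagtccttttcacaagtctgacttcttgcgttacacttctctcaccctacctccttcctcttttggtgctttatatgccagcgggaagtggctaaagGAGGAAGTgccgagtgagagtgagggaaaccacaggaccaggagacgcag
*Pilra*: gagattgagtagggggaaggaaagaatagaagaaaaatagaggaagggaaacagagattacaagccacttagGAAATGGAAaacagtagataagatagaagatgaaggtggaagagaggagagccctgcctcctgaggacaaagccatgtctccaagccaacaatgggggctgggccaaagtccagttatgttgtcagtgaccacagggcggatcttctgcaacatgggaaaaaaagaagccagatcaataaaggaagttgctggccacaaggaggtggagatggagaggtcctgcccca
Genes called higher had 97 promoters and genes called lower 212. PU.1 letters were in 9.91% of promoters of genes called lower, 2.06% of those called higher and 3.33% of all tested. The interferon response core was in 23.1%, 7.22% and 7.53%, and in 14.9% of the 168 promoters of lower genes outside the interferon, GTPase and nucleic acid sensor lists. The AP-1 site TGANTCA was in 10.4%, 6.19% and 5.59%. The NF-kB site GGGANTTTC was in 2.36%, 0% and 1.06%, and the E-box of the lysosomal regulators, TCACGTGA, in 0%, 1.03% and 1.66%. No test was made of these shares, and only 240 of the 331 called genes and 11590 of those tested had a promoter in the RefSeq table.

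Receptors for microbial products and dying cells were called in both directions (over all genes tested, 1.3% were called lower and 0.573% higher). Of 25 Toll-like receptor and adaptor genes 2 were called, both lower: *Cd14*, the coreceptor that hands LPS to TLR4, went from 8612 and 7115 to 5228 and 3937 normalized counts, a fall of 0.78 (edgeR adjusted p = 0.0298), and *Ly86*, the partner of the TLR4 homologue RP105, fell by 1.30 (edgeR adjusted p = 0.0456). *Tlr4* and *Tlr2* had log2 fold changes of -0.09 and -0.33, and 22 of the 25 estimates were lower. The list's calls became 0 without any of *Ncoa6*-sufficient replicate 1, *Ncoa6*-sufficient replicate 2 or *Ncoa6*-KO replicate 2. *Marco*, a class A scavenger receptor for bacteria and particles, went from 5068 and 6102 to 2029 and 2957, a fall of 1.16 (standard error 0.21, edgeR adjusted p = 0.0228). It did not stay called in every fit that left out 1 of the 4 libraries. Of 26 scavenger and dead-cell uptake receptor genes 3 were called higher and 2 lower. Lower estimates numbered 18 and higher ones 8, with a median of -0.08. Of the genes for recognition of phosphatidylserine on dying cells, some were called higher and others were not called. *Gas6*, the bridging ligand, went from 16142 and 14831 to 22761 and 20541 (log2 fold change 0.48, edgeR adjusted p = 0.0441), and *Tyro3*, a receptor for it, from 1.5 and 1.72 to 15.3 and 13.2, a low level that fell outside the rule for named genes. *Mertk* and *Axl*, the receptors of that family at higher levels, had log2 fold changes of -0.05 and -0.69 without passing the test (edgeR adjusted p = 0.969 and 0.172). *Colec12*, a collectin with scavenger function, rose by 0.45 (edgeR adjusted p = 0.0363). The 3 rises in this list were not called in any fit that left out 1 of the 4 libraries. In the C-type lectin list *Clec4a2*, an inhibitory receptor, fell by 0.72 and *Clec2i*, a ligand of natural killer cell receptors, rose by 0.74 (edgeR adjusted p = 0.0456 and 0.0172).

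**Figure D3:**
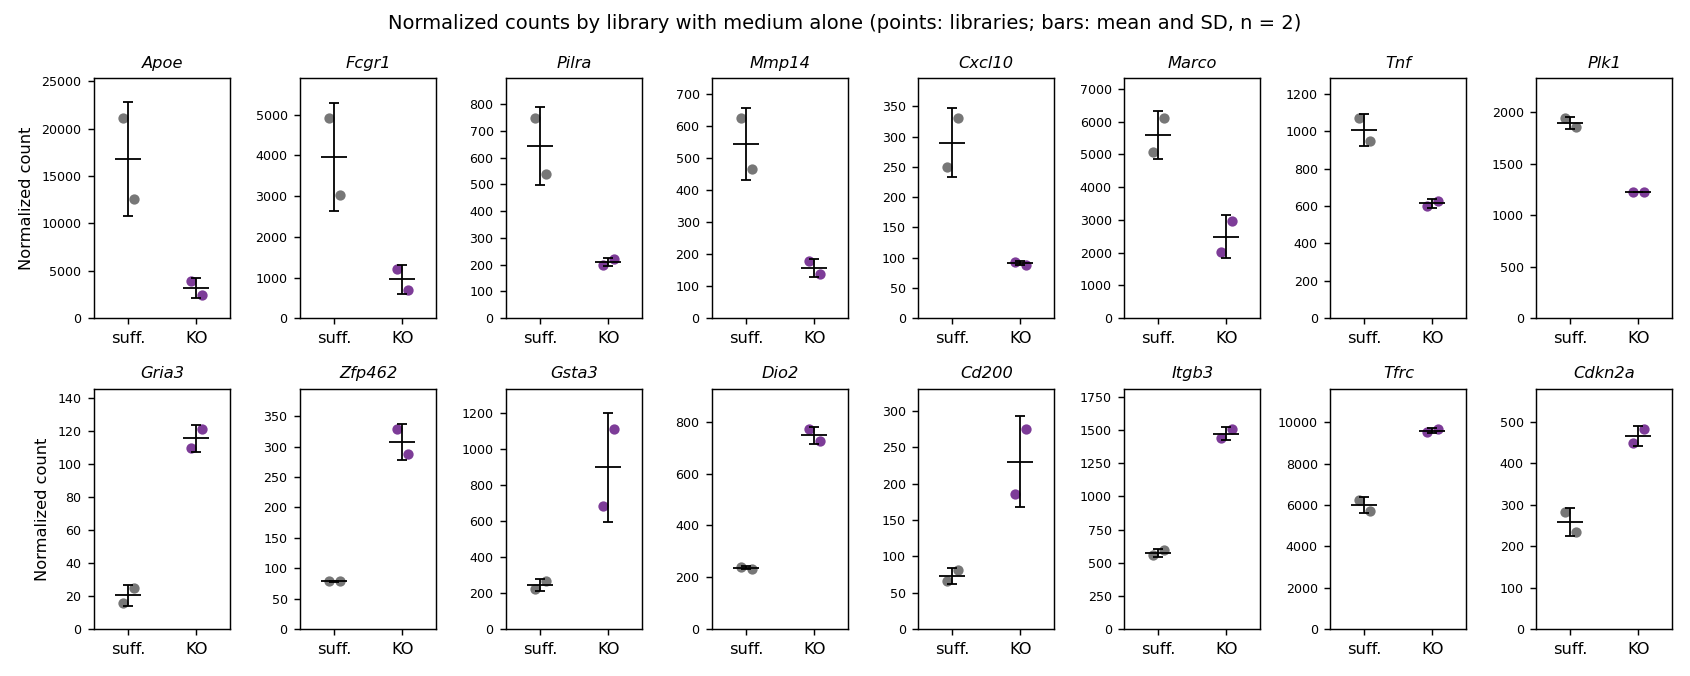
Normalized counts (y axes, from 0) of 16 genes in the 4 libraries with medium alone. Points are libraries and bars are the mean and SD of n = 2, with 8 genes called lower above and 8 called higher below. The 16 were chosen from called genes, and the genotypes were separate in all 331 called genes and in 43.1% of all genes tested.

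Chemokines, cytokines and inhibitors of NF-kB were called only lower. Of 13 CXC and CX3C chemokine genes 4 were called, all lower, against 1.3% of all genes. *Cxcl10*, which attracts activated T cells, had 250 and 330 normalized counts in *Ncoa6*-sufficient and 93.2 and 88.7 in *Ncoa6*-KO libraries, a fall of 1.67 (standard error 0.18, edgeR adjusted p = 0.00205). *Cxcl16*, a membrane-bound chemokine and scavenger receptor, fell by 1.03, *Pf4* by 0.83 and *Cxcl14* by 0.57 (edgeR adjusted p = 0.0412, 0.043 and 0.0298). Of 15 CC chemokine genes only *Ccl9* was called, from 18802 and 15146 to 11370 and 10122, a fall of 0.66 (edgeR adjusted p = 0.0474). *Tnf*, the only call among 30 TNF superfamily genes, went from 1068 and 946 to 598 and 629, a fall of 0.72 (standard error 0.13, edgeR adjusted p = 0.0229). It did not stay called when single libraries were left out. Among 33 interleukin and interleukin receptor genes 3 were called, all lower, with *Il2rg*, the common gamma chain, at -0.75 (edgeR adjusted p = 0.0421) and *Il1a* and *Il1b*, the genes of both forms of interleukin 1, at 24 or fewer normalized counts in every library. Of 19 genes of NF-kB subunits and inhibitors 4 were called, all lower: *Tnip3*, an inhibitor of the pathway, fell by 1.02, and the IκB family genes *Bcl3*, *Nfkbid* and *Nfkbie* by 0.86, 0.74 and 0.55 (edgeR adjusted p = 0.0223, 0.0363, 0.0227 and 0.0209). *Nfkb1* and *Nfkbia* had log2 fold changes of -0.18 and -0.14. In the prostaglandin and leukotriene list *Ptgs1*, which encodes COX-1, and *Cysltr1*, a leukotriene receptor, fell by 0.72 and 0.83, while *Pla2g7*, which degrades platelet-activating factor, rose by 0.89 (edgeR adjusted p = 0.0259, 0.0108 and 0.0381). Calls in the CC chemokine, interleukin and prostaglandin lists depended on which library was left out. The CXC calls numbered 1 without *Ncoa6*-sufficient replicate 1 or *Ncoa6*-KO replicate 2 and 2 without either of the others, and the NF-kB calls 2 without *Ncoa6*-KO replicate 1 and 0 without any of the others.

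Interferon-stimulated genes, which respond to the tonic interferon of macrophages, all had lower estimates, with 35 of 60 called and a median of -0.99. Over all genes tested, 1.3% were called lower, a share that applies to each list in this paragraph. Of 25 nucleic acid sensor and adaptor genes 11 were called, all lower, with a median of -0.64. *Zbp1*, a sensor of Z-form nucleic acids, had 516 and 324 normalized counts in *Ncoa6*-sufficient and 144 and 54.4 in *Ncoa6*-KO libraries, a fall of 2.05 (standard error 0.34, edgeR adjusted p = 0.0178). *Ifi205*, *Ifi213* and *Ifi206*, genes of the Ifi200 cluster of DNA-binding proteins, fell by 2.19, 2.01 and 1.77 (edgeR adjusted p = 0.00378, 0.0228 and 0.0298), and as close relatives they may share reads. *Aim2*, the DNA sensor of an inflammasome, had a log2 fold change of -0.11. Of 24 MHC class I presentation genes 3 were called lower: *H2-T24* at -1.53, *Psmb10*, an immunoproteasome subunit, at -0.65 and *Tapbpl* at -0.63 (edgeR adjusted p = 0.0298, 0.0483 and 0.0474), and *B2m*, the light chain of class I molecules, had a log2 fold change of -0.49. *Cd86*, a costimulator of T cells, was the only call among 19 MHC class II and costimulation genes and fell by 1.18 (edgeR adjusted p = 0.0363), a call lost with limma-voom and when any of the 4 libraries was left out. The class I calls numbered 1 with DESeq2 size factors, with filterByExpr or without *Ncoa6*-sufficient replicate 2, 0 without *Ncoa6*-sufficient replicate 1 or *Ncoa6*-KO replicate 2, and 9 without *Ncoa6*-KO replicate 1. *Ifi27*, chosen after its values were seen as a gene with an interferon name that went the other way, rose from 967 and 984 to 1455 and 1488 normalized counts (log2 fold change 0.59, edgeR adjusted p = 0.00814). These lists also differed between replicates: all 57 interferon-stimulated genes with at least 50 normalized counts were lower in *Ncoa6*-KO replicate 2 than in replicate 1, by a median of 0.65 on the log2 scale, against 0.02 over all such genes. In the *Ncoa6*-sufficient libraries 50 of the 57 were lower in replicate 2, by a median of 0.25. Their median level relative to the *Ncoa6*-sufficient mean was -0.69 in replicate 1 and -1.32 in replicate 2. Interferon-stimulated gene calls numbered 0 without *Ncoa6*-sufficient replicate 1, 10 without *Ncoa6*-sufficient replicate 2, 11 without *Ncoa6*-KO replicate 2 and 55 without *Ncoa6*-KO replicate 1, and the sensor calls 1, 6, 3 and 16 in the same order.

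Each lipid list held 1 call, and these went in both directions. The called shares ran from 4.17% of cholesterol synthesis genes to 6.67% of LXR target genes, each resting on 1 gene, against 1.88% of all genes tested. *Apoe*, the apolipoprotein that carries cholesterol out of macrophages and a target of the nuclear receptor LXR, was the only called member of 15 LXR target and lipid efflux genes, at 21081 and 12573 normalized counts in *Ncoa6*-sufficient and 3926 and 2459 in *Ncoa6*-KO libraries. Its log2 fold change was -2.40 (standard error 0.30, edgeR adjusted p = 0.00413). The list had 0 calls without *Ncoa6*-sufficient replicate 1, when *Apoe* was not called, and 4, all lower, without *Ncoa6*-KO replicate 1. *Abca1* and *Abcg1*, the cholesterol transporters that LXR also controls, had log2 fold changes of -0.28 and -0.91 without passing the test, and their *Ncoa6*-KO libraries were far apart, at 5840 and 2401 for *Abca1* and 2453 and 745 for *Abcg1*. *Nr1h3*, the gene of LXR alpha, had a log2 fold change of -0.48 (edgeR adjusted p = 0.103). Of 24 cholesterol synthesis genes 1 was called, higher. Higher estimates were seen for 19 of them, 6 at an unadjusted p under 0.05, and the median log2 fold change was 0.13. That median was 0.03 without *Ncoa6*-KO replicate 1 and 0.22 without *Ncoa6*-KO replicate 2, and leaving out any of the 4 libraries left 0 calls in this list. *Me1*, malic enzyme, which supplies NADPH for fatty acid synthesis, rose by 0.58 (edgeR adjusted p = 0.0468), and *Lipe*, hormone-sensitive lipase, fell by 0.54 (edgeR adjusted p = 0.0418). Calls in the lists of fatty acid synthesis and fatty acid use depended on which library was left out.

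Genes of adhesion, matrix and the osteoclast, the bone-resorbing cell that also grows from M-CSF-dependent precursors, went both ways. Of 21 osteoclast genes 2 were called higher and 3 lower, and of 26 integrins 1 and 2. For 33 adhesion genes the calls were 2 and 1, for 35 matrix protein genes 2 and 2, and for 26 metalloproteinases and TIMPs 0 and 2. Over all genes tested, 0.573% were called higher and 1.3% lower. The calls in each of these lists depended on which library was left out. *Itgb3*, the beta subunit of the vitronectin receptor, had 555 and 597 normalized counts in *Ncoa6*-sufficient and 1439 and 1508 in *Ncoa6*-KO libraries, a rise of 1.36 (standard error 0.17, edgeR adjusted p = 0.00463). *Itgal* and *Itga6*, other integrin alpha chains, fell by 0.87 and 0.46 (edgeR adjusted p = 0.00946 and 0.0385). *Ctsk*, the collagen-degrading protease of osteoclasts, rose by 0.68, while *Dcstamp*, needed for cell fusion, fell by 1.24 (edgeR adjusted p = 0.0213 and 0.0358), and *Nfatc1*, the master regulator of the osteoclast, had a log2 fold change of -0.07. *Mmp14*, a membrane metalloproteinase, went from 624 and 466 to 177 and 138 normalized counts, a fall of 1.78 (standard error 0.18, edgeR adjusted p = 0.00169), and *Mmp9*, a gelatinase, fell by 0.67 (edgeR adjusted p = 0.0245). The matrix proteins *Tgfbi* and *Ecm1* fell by 1.33 and 0.70, and *Lamb2* and *Plod2*, a laminin chain and a collagen-modifying enzyme, rose by 0.82 and 0.83 (edgeR adjusted p = 0.000636, 0.00362, 0.0457 and 0.0464). *Lamb2* and *Plod2* were not called with filterByExpr, in a fit of the 4 libraries alone, or without *Ncoa6*-sufficient replicate 1 or 2. *Esam* and *Cd34*, adhesion molecules of endothelial and progenitor cells, rose by 2.28 and 1.22 (edgeR adjusted p = 0.0419 and 0.0388). Neither was called by limma-voom, with filterByExpr, or without *Ncoa6*-sufficient replicate 1, *Ncoa6*-sufficient replicate 2 or *Ncoa6*-KO replicate 2. The 6 tested endothelial markers summed to 3449 and 3953 normalized counts in *Ncoa6*-sufficient and 5578 and 4321 in *Ncoa6*-KO libraries, most of them from *Vwf*, none was called, and *Cdh5* was at 24.1 or less in each library. Their part in the rise of *Esam* and *Cd34* was not tested.

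Genes with roles other than defence also rose. *Nedd4*, the ubiquitin ligase that gives its family its name, had 99.8 and 73.1 normalized counts in *Ncoa6*-sufficient and 417 and 427 in *Ncoa6*-KO libraries, a rise of 2.28 (standard error 0.18, edgeR adjusted p = 0.000607), and was the only call among 10 genes of the family. Of 21 glutamate receptor and syntrophin genes 3 were called, all higher: *Gria3*, an AMPA receptor subunit best known at synapses, at 15.8 and 24.9 against 110 and 121 normalized counts, *Sntb1*, a scaffold of the dystrophin complex, at 18 and 8.6 against 63.3 and 75.5, and *Dlg5*, another scaffold, at a low level. Their log2 fold changes were 2.51, 2.33 and 2.26 (edgeR adjusted p = 0.00253, 0.00593 and 0.0229), and 0.573% of all genes were called higher. The list joins different families and was written with earlier results of these data known, so its share of calls does not describe a family. Without *Ncoa6*-sufficient replicate 1 only *Sntb1* stayed called, and without *Ncoa6*-sufficient replicate 2 or *Ncoa6*-KO replicate 2 *Dlg5* was not called. *Zfp462*, a zinc finger gene, rose from 78.1 and 79.1 to 329 and 287, a log2 fold change of 1.97 (edgeR adjusted p = 0.00229), while of 360 Zfp-named genes tested 2 were called higher and none lower. *Gsta3*, a glutathione S-transferase that detoxifies electrophiles, rose from 221 and 266 to 683 and 1110, a log2 fold change of 1.88 (standard error 0.25, edgeR adjusted p = 0.00593), and was the only call among 19 such genes, of which 16 had higher estimates. *Tfrc*, the transferrin receptor that brings iron into cells, rose from 6256 and 5726 to 9521 and 9668 (log2 fold change 0.68, edgeR adjusted p = 0.00814), and *Trf*, transferrin itself, fell by 1.20 (edgeR adjusted p = 0.0229). *Ass1*, which regenerates arginine, rose by 0.74, while *Acod1*, which makes itaconate, fell from 1129 and 1201 to 454 and 510, a log2 fold change of -1.27 (edgeR adjusted p = 0.0171 and 0.00198). Of 248 solute carrier genes 5 were called (2.02%), 2 higher and 3 lower, close to the 1.88% called over all genes tested. Among them *Slc2a3*, a glucose transporter, rose by 0.59, and *Slc16a3*, a lactate exporter, fell by 0.61 (edgeR adjusted p = 0.0251 and 0.0298). The calls in the glutathione S-transferase, iron, arginine and solute carrier lists depended on which library was left out.

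Lists did not cover 171 of the called genes, 68 higher and 103 lower. By the size of the change, the highest of these included *Npdc1*, a neural proliferation and differentiation gene, at 31.5 and 31 against 143 and 121 normalized counts, a log2 fold change of 2.08 (edgeR adjusted p = 0.00198). *Nptx1*, neuronal pentraxin 1, had 3007 and 2423 against 6714 and 10409 normalized counts, a log2 fold change of 1.66 (edgeR adjusted p = 0.0058). *Dio2*, the deiodinase that activates thyroid hormone, rose from 241 and 232 to 772 and 726, a log2 fold change of 1.66 (standard error 0.14, edgeR adjusted p = 0.000607). *Sdc2*, a cell surface proteoglycan, *Myo6*, a myosin that moves toward the minus end of actin, *Tox2*, a nuclear HMG-box factor, *Dner*, a Notch ligand, and *Dach1*, a transcription factor, rose by 1.62, 1.53, 1.42, 1.36 and 1.36 (edgeR adjusted p between 0.00229 and 0.0228). On the lower side *Saa3*, an acute phase protein, went from 603 and 436 to 145 and 113 normalized counts, a fall of 2.00 (standard error 0.19, edgeR adjusted p = 0.00169). *Ptprn*, a protein of secretory granules, *Gpr35* and *Gpr84*, receptors for small metabolites and fatty acids, and *Slamf9* and *Siglece*, receptors of myeloid cells, fell by 1.92, 1.84, 1.39, 1.57 and 1.54 (edgeR adjusted p between 0.00253 and 0.0163). *Aif1*, the calcium-binding protein also called IBA1 and a common macrophage marker, went from 601 and 348 to 193 and 115, a fall of 1.61 (edgeR adjusted p = 0.0364). In each gene of this paragraph the libraries of both genotypes were separate, as they were in all 331 called genes and in 43.1% of all genes tested.

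Housekeeping and organelle lists held few calls (1.88% of all genes tested were called). None of 88 oxidative phosphorylation genes and none of 84 cytosolic ribosomal protein genes was called, with medians of 0.00 and -0.09. With edgeR, 1 of the former and 3 of the latter had an unadjusted p under 0.05, and DESeq2 and limma-voom called 0 in both lists. With a replicate block within genotype 8 oxidative phosphorylation genes were called higher and 1 lower, and 9 ribosomal protein genes were called lower. Among 57 lysosomal genes only *Ctsk* was called, and the median was -0.02. Of 56 members at 50 normalized counts or more, 55 were lower in *Ncoa6*-KO replicate 2 than in replicate 1, and the median of the list was -0.14 without replicate 1 and 0.10 without replicate 2. Of 20 other coactivators and corepressors 0 were called and 0 had an unadjusted p under 0.05, and their log2 fold changes ran from -0.18 to 0.24. Among 25 nuclear receptors only *Nr4a3* was called, higher, at 2.25 and 2.58 against 9.04 and 10.5 normalized counts, a low level outside the rule for named genes. The list of 17 circadian clock genes had the highest median of any list in which at least 10 genes had a mean of 50 normalized counts or more, 0.34, with 7 genes higher at an unadjusted p under 0.05 and 0 called. Its levels in the *Ncoa6*-sufficient libraries differed as well, by a median of 0.21 on the log2 scale.

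**Figure D4:**
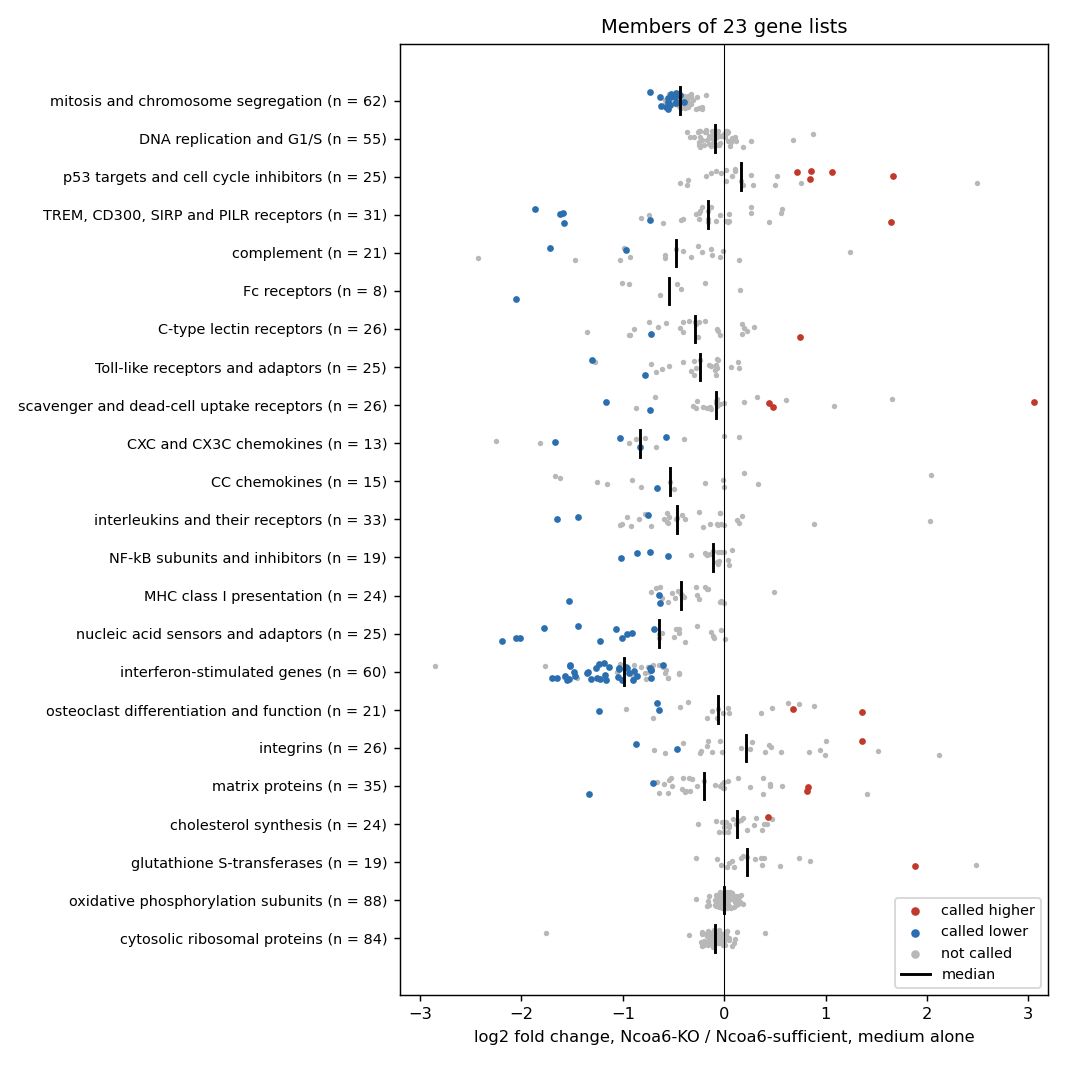
Log2 fold change with medium alone (x axis) of every tested member of 23 gene lists (rows). Blue and red points were called lower and higher, grey points were not called and black lines are medians, and the median lies at -0.99 for interferon-stimulated genes and -0.43 for mitosis genes against 0.00 for oxidative phosphorylation subunits.

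A pair of genes had no counts in one genotype. *Gm2260*, annotated as an unprocessed pseudogene on chromosome 14, had 0 counts in both *Ncoa6*-sufficient libraries and 60 and 110 in the *Ncoa6*-KO libraries. Set against 3 counts in a library, the limit that a count of 0 allows, it was at least 26.9-fold higher. *4930404A12Rik*, annotated as antisense on chromosome 5, had 19 and 18 counts in *Ncoa6*-sufficient and 0 in both *Ncoa6*-KO libraries, at least 5.67-fold lower. These limits cover counting error only.

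Called genes were spread over the genome. Every autosome and the X chromosome held some, at between 0.955% of tested genes on chromosome 12 and 2.62% on chromosome 19, with 1.88% over all chromosomes. None of 44 tested genes within 1 Mb of *Ncoa6* on chromosome 2, other than *Ncoa6*, was called, and 7 of 222 within 10 Mb were (3.15%). Around *Lyz2* on chromosome 10, 0 of 15 genes within 1 Mb and 1 of 95 within 10 Mb were called. Of the 331 called genes 65 had another called gene within 100 kb, and 62 of the 65 were lower, among them the Ifit, Gbp, Oas and Pilr clusters. Reads that fit more than 1 member of such a cluster can be assigned to either.

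With LPS + MSU, the same comparison between genotypes called 632 genes (3.59%), and the difference between the knockout effects under the 2 culture conditions was called for 0 genes (0% of those tested) by edgeR, with a smallest adjusted p of 0.163 and 1045 genes at an unadjusted p under 0.05. DESeq2 called 43 genes for this difference and limma-voom 0. The comparisons use different libraries, but the sources do not say whether both culture conditions of a genotype came from the same mice. With a replicate block within genotype edgeR called the difference for 444 genes. For mitosis genes the medians were -0.43 in resting cells and -0.38 after LPS + MSU, and each condition gave 17 calls, all lower. *Pilra* had log2 fold changes of -1.62 and -1.91, *Dio2* 1.66 and 1.59, *Itgb3* 1.36 and 1.56, and *Apoe* -2.40 and -2.45. Interferon-stimulated genes had medians of -0.99 and -0.28, with 35 and 0 called lower, and 37 of the 60 had an unadjusted p under 0.05 for the difference, none of which passed the adjustment. *Cxcl10* had -1.67 and -0.15, *C3* -0.97 and 0.12, and *Mmp14* -1.78 and -0.73. All 101 genes called higher and 226 of the 230 called lower with medium alone had the same sign with LPS + MSU.

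**Figure D5:**
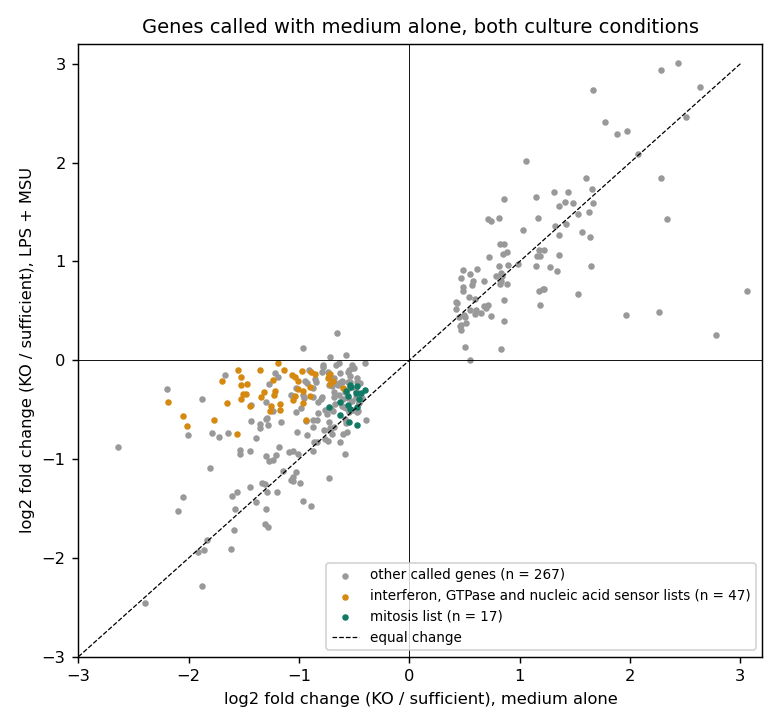
Log2 fold change with LPS + MSU (y axis) against that with medium alone (x axis) for genes called with medium alone, so that the genes were chosen on the x axis. The dashed line marks equal change, green points are 17 mitosis genes, orange points 47 genes of the interferon, GTPase and nucleic acid sensor lists and grey points the others, *Gm2260* and *4930404A12Rik* lie outside the axes, and the orange points lie nearer to 0 on the y axis than on the x axis.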

How the data were processed

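RNA of BMDMs was sequenced from stranded poly(A) libraries. The authors aligned the reads with STAR 2.7.3a to GRCm38 with an Ensembl annotation and deposited expected counts per gene from RSEM 1.3.3, which divides reads that fit several genes. These values were rounded, and 17625 genes whose rounded sum over the 8 libraries reached 10 were tested. edgeR 4.0.16 (R 4.3.3) fitted the 4 groups together with TMM normalization and its quasi-likelihood test (4 residual degrees of freedom), with Benjamini-Hochberg adjustment over all genes tested. Normalized counts refer to a library of 29332189 counts, the average effective size. With 2 libraries against 2, the smallest two-sided p of an exact permutation test is 0.333, so none is given for single genes.

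The members and gene lists were chosen with earlier results of these data known. The genes named are key genes of each list, up to 4 called genes per list and direction with the largest change among those whose mean normalized count reached 50 and no overlap between genotypes, and genes outside the lists by the same rule, from the first 12 in each direction. Other genes named after their values were seen are *Ifi27*, *Eda2r*, *Tyro3*, *Nr4a3*, *Dlg5*, *Il1a*, *Il1b*, *Gm2260* and *4930404A12Rik*. The labels give replicate numbers and do not say that a number marks a shared mouse, and differences between replicates correlated across genes by 0.0494 between the genotypes with medium alone, and by 0.123 (*Ncoa6*-sufficient) and 0.153 (*Ncoa6*-KO) between the culture conditions of a genotype. With 2 pairs each this does not establish pairing, so the fit held no replicate term and the fits with one are given as alternatives. Replicates differed by more than counting noise (chi-square per degree of freedom 29 and 24.2). On simulated data with 12472 genes the test recovered 86% of 100 genes changed 2-fold and 44% of 100 changed 1.5-fold, with 13 false calls. The simulation left out genes at low counts and drew each gene independently. In the real replicates whole lists shifted together, so these rates may be too favourable. Alternatives were DESeq2 1.42.0, limma-voom (limma 3.58.1), other filters, other sets of libraries and a replicate block. Promoters came from RefSeq on GRCm38.p6.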

Additional observations from a re-analysis of the deposited data

How the results depend on the processing

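The number of called genes depended on the processing. All 331 genes called with medium alone kept their sign in every alternative that gave a value. As the genotypes were separate in all 331, this could hardly have come out otherwise. With no filter 1152 genes were called (391 higher, 761 lower), with a log2 fold change limit of 1 147 (49 and 98), and DESeq2 called 358 lower. The same-numbered libraries are not known to be paired. With a replicate block 1023 genes were called (331 higher, 692 lower), and with a replicate block within genotype 1530 (519 and 1011). Leaving out 1 library gave 22 to 372 calls (8 to 79 higher, 14 to 293 lower), and the library left alone was assumed to vary like the other groups. For LPS + MSU, in alternatives chosen after seeing the data, no filter gave 1611 calls, the replicate block 1532, the block within genotype 2000 and leaving out 1 library 374 to 761. For the difference between culture conditions these gave 269, 86, 444 and 0 to 23 calls, and DESeq2 gave 43. The cause was not tested.

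Signs turned only in genes that were not called, and the separate genotypes of called genes left little room for a turn. With the replicate block within genotype *Mki67* was at 0.01, *Mertk* at 0.18, *Aim2* at 0.07 and *Abca1* at 0.10. Leaving out 1 library moved *Kmt2d* between -0.06 and 0.14, *Pcna* between -0.16 and 0.07, *Trem2* between -0.05 and 0.14, *Tlr4* between -0.27 and 0.07, *Mertk* between -0.45 and 0.26, *Aim2* between -0.24 and 0.03, *Abca1* between -1.06 and 0.22 and *Nfatc1* between -0.16 and 0.03.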
